A study of Mus musculus with 6 samples.

Results

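Enzymes that handle glutathione, thioredoxin and reactive aldehydes were compared between transgenic and wild-type mouse lenses. The genes were chosen by symbol: glutathione S-transferases, glutathione peroxidases, peroxiredoxins, sulfiredoxin, thioredoxins and their reductases, glutaredoxins, superoxide dismutases, catalase, the enzymes of glutathione synthesis and reduction, quinone reductases, aldehyde dehydrogenases, aldo-keto reductases and the metallothioneins Mt1 and Mt2. In all, 101 of 18193 measured genes met this rule. Where a gene had several probe sets, the brightest on average represented it, so a value is a log2 array signal, and levels of different probe sets are not compared as amounts of RNA. RNA came from whole P2 lenses (postnatal day 2) of the Balb/c strain, in 3 transgenic samples (T1, T2 and T3) and 3 wild-type samples (W1, W2 and W3), each on 1 Affymetrix array. The labels name neither the transgene nor the promoter that drives it. The design text states 12 lenses for each genotype and does not say whether they were pooled or how many animals gave them. The p-values therefore reflect differences among these 6 samples alone, and that spread may be technical.

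The lens is rich in reduced glutathione, which keeps crystallin thiols from forming disulfides and so protects transparency. Glutamate-cysteine ligase and glutathione synthetase build the tripeptide, glutathione reductase restores its reduced form with NADPH, peroxidases spend it on peroxides, and transferases couple it to electrophiles. Thioredoxin and glutaredoxins repair oxidised protein thiols, peroxiredoxins reduce peroxides, and aldehyde dehydrogenases and aldo-keto reductases clear aldehydes made by lipid peroxidation. Many of these genes are targets of the transcription factor Nrf2, encoded by Nfe2l2, in mammals.

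Lens markers were present in all samples, and of 15 measured 1 rose, 2 fell and 10 had differences below 0. Their summed level, 17.56 to 17.62 in transgenic and 17.60 to 17.63 in wild-type lenses (log2 of summed linear values), is carried by crystallins near the top of the scale and cannot show a change. Bfsp1, a beaded filament protein of lens fibres, and Prox1, a homeobox factor of fibre differentiation, were the genes that fell, with differences of -1.66 and -1.04. Foxe3, which encodes a forkhead factor of the lens epithelium, stood at 13.33, 13.42 and 13.39 in transgenic lenses, against 8.54, 8.86 and 8.82 in wild-type lenses, and rose. Transcripts of skin and muscle stood apart in T3. All 11 measured skin markers and all 11 measured muscle markers were highest in T3, where the skin list summed to 14.85, against 10.78 and 10.93 in T2 and T1 and 10.76 to 11.48 in wild-type lenses. The muscle list summed to 13.26 in T3, with 9.20 to 9.29 in the other transgenic samples and 9.43 to 9.82 in wild-type lenses. Of 10 measured cornea and conjunctiva markers, 6 were highest in T3, Aldh3a1 of the group among them. Lum stood at 8.66 in T3 and at 3.79 to 4.60 on the other arrays, and Krt5 at 10.06 against 6.29 to 6.39. The summed level of that list was 12.87 in T3 and 12.81 in W1. The neural retina list ranged from 11.33 to 12.04 in transgenic and from 11.69 to 12.36 in wild-type lenses, with differences below 0 for 15 of 16 genes and none past the test. The retinal pigment epithelium list was highest in T2, at 12.35, against 10.79 and 11.38 in T1 and T3 and 10.80 to 11.15 in wild-type lenses, with none of its 9 genes past the test. The part of these tissues in the results below was not tested, beyond values given without T3. In whole lenses, fewer cells of a type and less RNA per cell cannot be told apart.

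The share of genes called in the group lay close to that of all genes. In transgenic lenses 3 of the 101 genes rose (Aldh1l2, Aldh6a1 and Gstp3), 1 fell (Aldh1b1) and 97 did not pass (limma, Benjamini-Hochberg adjusted p under 0.05 over all genes). That is 3.96% of the group, beside 4.55% of all genes tested. Over all genes 1.93% rose and 2.61% fell. The median difference of the group was 0.028 and that of all genes 0.011 (transgenic minus wild-type, log2 scale). The group's median changed sign with the scaling, to -0.017 without further normalization and to -0.053 when each array was centred. The arrays of the genotypes did not overlap for 34 of the 101 genes (33.7%), beside 28.8% of all genes. An unadjusted p under 0.05 was reached by 21 of the 101 genes and by 22.4% of all genes. With 1 array left out, 1 to 3 of the genes rose and 0 to 2 fell. Counts were 1 and 2 without T1, 1 and 0 without T2, W2 or W3, and 2 and 0 without W1. Without T3 they were 3 and 1, with Mt1 in place of Gstp3. On the values as deposited, or after centring, 2 rose and 3 fell.

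**Figure D1:**
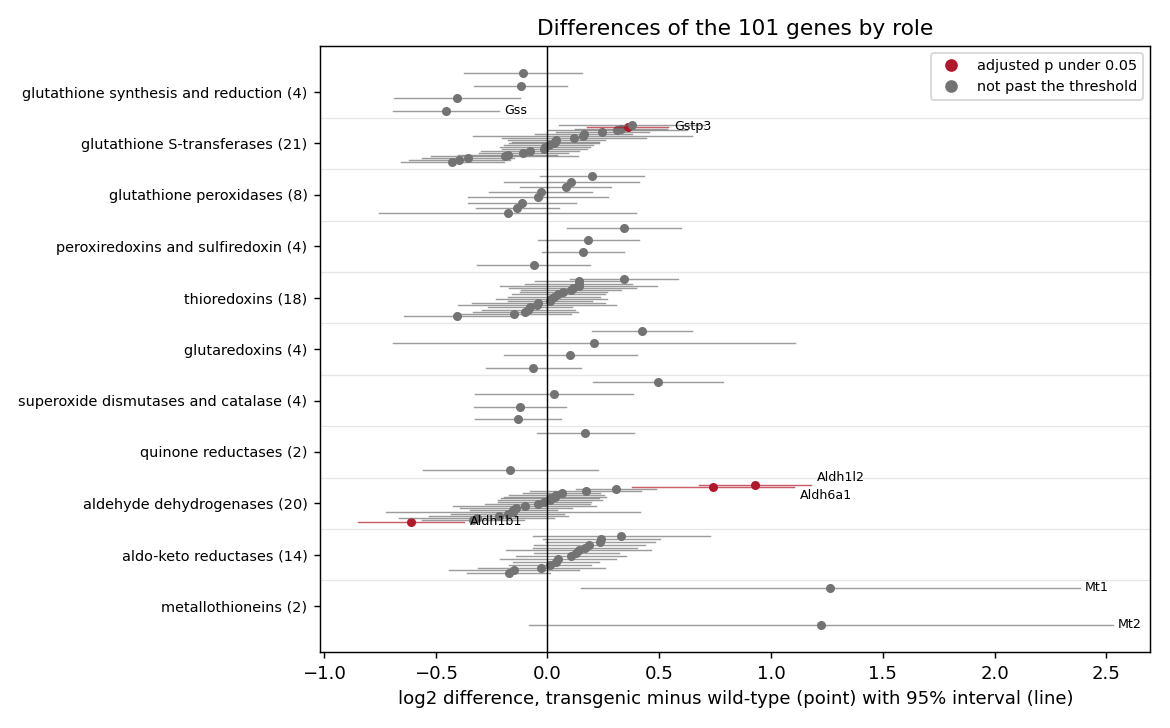
Log2 difference between transgenic and wild-type lenses (x axis) for each of the 101 genes, grouped by role (y axis, with the number of genes); points are differences over 3 arrays a group, lines are 95% intervals, and red marks genes past the threshold. Most points lie within 0.5 of 0, the 4 red ones are Gstp3, Aldh1l2, Aldh6a1 and Aldh1b1, and the metallothioneins Mt1 and Mt2 have the widest intervals.

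Aldehyde dehydrogenases supplied 3 of the 4 calls, with 2 of 20 genes higher, 1 lower and 17 not past the test, beside 4.55% of all genes called. Aldh1l2, which encodes a mitochondrial enzyme that oxidises 10-formyltetrahydrofolate and yields NADPH, stood at 5.94, 6.09 and 5.92 in transgenic lenses, against 5.11, 5.18 and 4.86 in wild-type lenses. Every transgenic sample was above every wild-type sample, and the difference was 0.93 ± 0.11 (SE), or 1.90-fold (limma adjusted p = 0.00458). Aldh1l2 passed under all alternatives, with an adjusted p up to 0.0276 with 1 array left out. The wild-type mean of 5.05 was dimmer than the median probe set (5.34).

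Aldh6a1, whose product degrades methylmalonate semialdehyde from valine and thymine, stood at 8.67, 8.42 and 8.33 in transgenic lenses, against 8.05, 7.50 and 7.65 in wild-type lenses. The groups did not overlap, and the gene rose by 0.74 ± 0.16 (SE), or 1.67-fold (limma adjusted p = 0.0415). The call was lost without T1 (adjusted p = 0.116), T2 (0.118), W2 (0.131) or W3 (0.131), on the values as deposited (0.0755) and after centring (0.0988). Aldh1b1, which encodes a mitochondrial aldehyde dehydrogenase, stood at 4.78, 4.71 and 4.47 in transgenic lenses, against 5.24, 5.22 and 5.33 in wild-type lenses. It fell by 0.61 on the log2 scale (SE 0.10), with no overlap (limma adjusted p = 0.0209). All 6 values were dimmer than the median probe set. The call was lost without T2 (adjusted p = 0.0699), W1 (0.0505), W2 (0.0749) or W3 (0.0822).

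**Figure D2:**
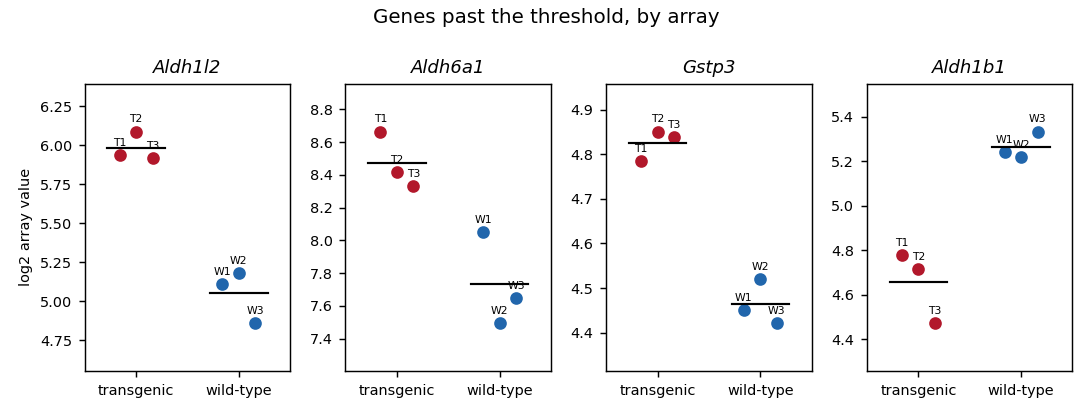
Log2 array values (y axis, its own range in each panel) of the 4 genes past the threshold in transgenic (red, left) and wild-type (blue, right) lenses; points are arrays T1 to T3 and W1 to W3, and lines are means of 3. The groups do not overlap in any panel, and Aldh1b1 is the only one of the 4 with lower values in transgenic lenses.

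The cytosolic retinaldehyde dehydrogenase gene Aldh1a1 gave one of the brightest signals of the group and showed no difference that could be measured. It stood at 13.20, 13.05 and 13.01 in transgenic lenses, against 13.18, 13.04 and 13.07 in wild-type lenses. The samples of the genotypes were interleaved, with a difference of -0.014 and a 95% interval of -0.22 to 0.19. Without further normalization its sign turned to 0.017. Its close relative Aldh1a7 differed by -0.14 ± 0.11 (SE). Aldh3a1, an abundant enzyme of the mouse cornea, was listed at 3.53 to 3.85 in transgenic and 3.62 to 3.72 in wild-type lenses, in the lowest part of the arrays' range. Aldh1a3, which makes retinoic acid in the ventral retina of the developing eye, was highest in W1, at 8.52. W1 was also the sample whose neural retina list was highest, at 12.36. The vessel marker list, at 11.68, was highest in W1 too. So was the leukocyte and macrophage list, at 10.29, with T3 close to it at 10.28. In W2 and T2, where the neural retina list summed to 12.15 and 12.04, Aldh1a3 stood at 7.60 and 8.20. The part of these tissues in Aldh1a3 was not tested. The remaining differences of the family ran from -0.33 (Aldh1a2) to 0.31 (Aldh3b2), and none of these genes passed.

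The enzymes that build and recycle glutathione lay below 0 in all 4 genes, with no gene past the test. Over all genes 8672 of 18193 lay below 0, and 4 genes are too few to compare with that share. Gss, encoding glutathione synthetase, stood at 10.73, 10.48 and 10.45 in transgenic lenses, against 10.94, 11.02 and 11.07 in wild-type lenses. The groups did not overlap, and the difference of -0.45 ± 0.10 (SE) was just short of the threshold (limma adjusted p = 0.0503). Gss passed in 6 alternatives: without T1 (0.0453), without further normalization (0.0343), with centring (0.0304), without dim probe sets (0.0380), with trended robust variances (0.0169) and with array weights (0.0250). Leaving out any other array gave an adjusted p of 0.0767 to 0.161. A second probe set of Gss differed by -0.16.

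Gclc, the catalytic subunit of glutamate-cysteine ligase, stood at 7.81, 7.52 and 7.43 in transgenic lenses, against 7.90, 8.14 and 7.94 in wild-type lenses. The groups were again apart, by a narrow margin between T1 and W1, with a difference of -0.41 ± 0.12 (SE; limma adjusted p = 0.105), and a second probe set differed by -0.26. Gclm, the modifier subunit, differed by -0.11 and Gsr, glutathione reductase, by -0.12, both with overlapping groups. Their second probe sets differed the other way, by 0.16 for Gclm and 0.084 for Gsr. The sign of Gclm turned to 0.027 with the mean of its probe sets.

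Genes around this cycle were read from a list of 48 measured genes for glutathione breakdown, cysteine and NADPH supply, Nrf2 control and related enzymes. Of these, 3 rose, 2 fell and 43 did not pass, with a median difference of 0.018, beside 1.93% of all genes higher and 2.61% lower. The list was chosen with earlier results of these data known, so its counts cannot be weighed against these shares. Ggct encodes gamma-glutamylcyclotransferase, which releases 5-oxoproline from gamma-glutamyl dipeptides. It stood at 9.33, 9.09 and 9.56 in transgenic lenses, against 10.60, 10.65 and 10.86 in wild-type lenses. The groups were more than 1 log2 unit apart, and Ggct fell by 1.38 on the log2 scale (SE 0.13; limma adjusted p = 0.00205). It passed with any 1 array left out, while its dimmer probe sets differed by -0.26 and -0.23, and the mean of its probe sets did not pass (adjusted p = 0.0539).

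Chac1, whose product also cleaves the gamma-glutamyl bond but acts on glutathione itself, went the other way. It stood at 6.99, 6.89 and 7.24 in transgenic lenses, against 5.30, 6.21 and 5.61 in wild-type lenses, and the groups did not overlap. Chac1 rose by 1.34 ± 0.22 (SE; limma adjusted p = 0.0188). Dpep1, a dipeptidase of the cell surface that splits cysteinylglycine, stood at 5.78, 5.999 and 6.51 in transgenic lenses, against 5.14, 5.27 and 5.16 in wild-type lenses. Dpep1 rose by 0.91 ± 0.17 (SE; limma adjusted p = 0.0315), was highest in T3, and still rose without T3, by 0.70 (adjusted p = 0.0173). Its call was lost without T2 (0.0938), W1 (0.0814), W2 (0.0915) or W3 (0.107), and a second probe set differed by 0.065. Chac1 was lost without T1 (0.0593), T2 (0.0602) or W3 (0.0757).

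The remaining calls in that list were Hmox1 and Sqstm1. The heme oxygenase gene Hmox1 stood at 9.53, 9.59 and 9.35 in transgenic lenses, against 11.55, 11.79 and 11.86 in wild-type lenses, the largest difference of the list. It fell by 2.24 on the log2 scale (SE 0.11; limma adjusted p = 8.11e-05). Sqstm1, which encodes the autophagy adaptor p62 that binds Keap1, rose by 0.50 ± 0.09 (SE; limma adjusted p = 0.0294). The Sqstm1 call was lost whichever array was left out, with an adjusted p of 0.0739 without T1, 0.111 without T2, 0.0601 without T3, 0.0515 without W1, 0.0903 without W2 and 0.0638 without W3. The mitochondrial transhydrogenase gene Nnt, which makes NADPH, had values of 9.15 to 9.26 in transgenic and 8.80 to 8.90 in wild-type lenses, just short of the test (limma adjusted p = 0.0506).

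**Figure D3:**
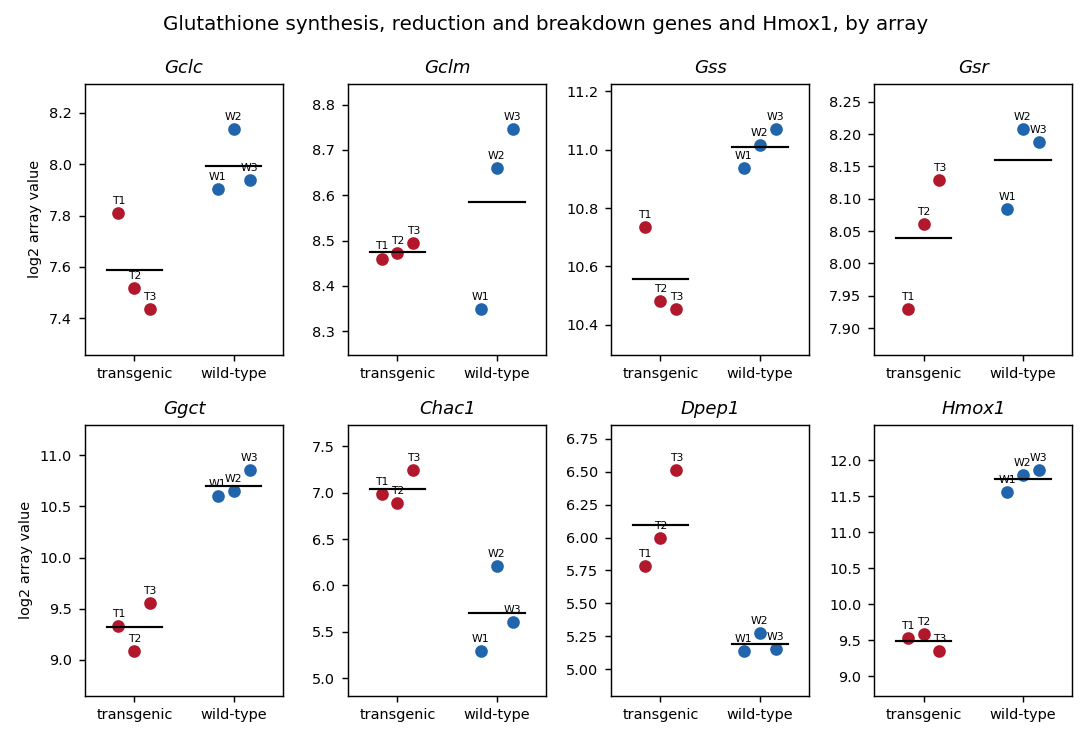
Log2 array values (y axis, its own range in each panel) of Gclc, Gclm, Gss and Gsr (top) and of Ggct, Chac1, Dpep1 and Hmox1 (bottom) in transgenic (red, left) and wild-type (blue, right) lenses; points are arrays and lines are means of 3. Ggct and Hmox1 are lower and Chac1 and Dpep1 higher in transgenic lenses, while Gclm and Gsr overlap.

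Among 21 glutathione S-transferase genes, Gstp3 rose and 20 did not pass. Gstp3, a mouse pi class transferase, stood at 4.78, 4.85 and 4.84 in transgenic lenses, against 4.45, 4.52 and 4.42 in wild-type lenses. The groups did not overlap, and it rose by 0.36 ± 0.08 (SE), or 1.28-fold (limma adjusted p = 0.0454), at a signal dimmer than the median probe set. This call was lost whichever array was left out, with an adjusted p of 0.0952 without T1, 0.147 without T2, 0.0961 without T3, 0.0821 without W1, 0.116 without W2 and 0.139 without W3.

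Its brighter relative Gstp1 differed by 0.16 and did not pass. It stood at 13.00, 13.02 and 12.94 in transgenic lenses, against 12.67, 12.88 and 12.92 in wild-type lenses, and T3 and W3 nearly met. The mu class genes Gstm1 (0.0063, with a 95% interval of -0.19 to 0.21) and Gstm5 (-0.015, with -0.20 to 0.18) lay close to 0. Gstm1 changed sign with the scaling, to -0.028 without further normalization and to -0.064 with centring. Dimmer probe sets of Gstm1 differed by 0.30 and 0.48, and whether related mu class transcripts share these signals was not tested.

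The other transferases had differences of both signs and did not pass. Gsta4, which handles the lipid aldehyde 4-hydroxynonenal, differed by -0.19 ± 0.14 (SE). Gstk1, a transferase of mitochondria and peroxisomes, stood at 6.97, 6.85 and 7.10 in transgenic lenses, against 7.51, 7.40 and 7.30 in wild-type lenses (difference -0.43, limma adjusted p = 0.0566). Gsto1, an omega class enzyme, stood at 8.15, 8.22 and 8.66 in transgenic lenses, against 7.87, 7.997 and 8.03 in wild-type lenses, and was highest in T3. A second, dimmer probe set of Gsto1 differed by 0.66, without overlap, and was highest in T1. The groups did not overlap for 11 of the 21 genes, 6 of them higher and 5 lower in transgenic lenses, where over all genes 15.3% were apart as higher and 13.5% as lower.

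Of 8 glutathione peroxidase genes none passed, with differences from -0.18 (Gpx7) to 0.20 (Gpx6). Gpx7 was highest in T3 of the transgenic samples, at 7.30 against 6.37 and 6.56 in T1 and T2, and its difference without T3 was -0.45 (limma adjusted p = 0.186). Gpx1, the abundant cytosolic peroxidase, stood at 12.19, 12.07 and 12.13 in transgenic lenses, against 12.24, 12.31 and 12.24 in wild-type lenses, a small difference of -0.13 without overlap, with a 95% interval of -0.32 to 0.05. Gpx4, which reduces lipid peroxides in membranes, differed by 0.081, and a second bright probe set of it by 0.28. Among the 4 genes for peroxiredoxins and sulfiredoxin none passed. Prdx2, a cytosolic peroxiredoxin, was higher in each transgenic sample than in any wild-type sample, at 12.27, 12.28 and 12.26 against 12.17, 12.13 and 12.04, a difference of 0.16 ± 0.08 (SE; limma adjusted p = 0.280). Srxn1, which restores overoxidised peroxiredoxins, differed by 0.34 ± 0.11 on its brightest probe set and by -0.17, -0.37 and 0.032 on the others, so the direction depends on the probe set. Prdx4, of the endoplasmic reticulum, differed by -0.061, by 0.12 on its next brightest probe set, and by 0.0017 with the mean of its probe sets. Prdx1 and Prdx6 were not measured as single genes here.

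None of 18 thioredoxin genes passed on the brightest probe set. When the 34945 probe sets with 1 symbol were tested instead, dimmer ones of Txn1, Txndc9 and Txnrd3 passed. Their differences were 0.67, -0.58 and 0.53 (limma adjusted p = 0.0257, 0.0274 and 0.0451). The brightest probe sets of Txndc9 and Txnrd3 differed by 0.017 and 0.049. Txn1, cytosolic thioredoxin, stood at 11.09, 11.23 and 11.41 in transgenic lenses, against 11.36, 11.32 and 11.36 in wild-type lenses, a difference of -0.099 within the spread of the transgenic samples. A dimmer probe set of Txn1 stood at 6.46, 6.58 and 6.65 in transgenic lenses, against 5.71, 5.85 and 6.13 in wild-type lenses, with no overlap and a difference of 0.67, so the direction depends on the probe set. Txnrd1, its reductase, differed by -0.15 ± 0.11 (SE). Dimmer probe sets of Txnrd1 differed by -0.40, without overlap, and by -0.24, with overlap. Txnip, the thioredoxin inhibitor, differed by -0.047 ± 0.15 (SE), while a second probe set of Txnip differed by 0.16. Txndc12, a thioredoxin-like protein of the endoplasmic reticulum, had the lowest difference of the class. It stood at 9.23, 9.08 and 8.93 in transgenic lenses, against 9.52, 9.53 and 9.40 in wild-type lenses, apart by -0.40 ± 0.10 (SE; limma adjusted p = 0.0694). It passed without further normalization (0.0443), with centring (0.0427), with trended robust variances (0.0352) and with array weights (0.0466). Txndc5, another protein of that compartment, was the highest of the class at 0.34 ± 0.11 (SE), with no overlap between the groups, and Txnl1 differed by 0.14.

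Of 4 glutaredoxin genes none passed. Glrx5, a mitochondrial glutaredoxin of iron-sulfur cluster assembly, stood at 10.14, 10.03 and 10.14 in transgenic lenses, against 9.81, 9.54 and 9.69 in wild-type lenses. The groups were apart, with a difference of 0.42 ± 0.10 (SE; limma adjusted p = 0.0537). Glrx5 passed without dim probe sets (0.0406), with the mean of probe sets (0.0469), with trended robust variances (0.0220) and with array weights (0.0264). Cytosolic Glrx stood at 6.11, 6.38 and 7.77 in transgenic lenses, against 6.80, 6.33 and 6.50 in wild-type lenses. Only T3, the sample with the highest skin and muscle lists, was above all wild-type samples, and the difference of 0.21 turned to -0.30 without it. Glrx2, a mitochondrial glutaredoxin, differed by -0.064 on its brightest probe set and by -0.30 and -0.38 on the others, on which the groups did not overlap.

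The superoxide dismutases and catalase did not pass either. Sod1, the cytosolic copper and zinc enzyme, differed by -0.13 ± 0.08 (SE) and Sod2, the mitochondrial manganese enzyme, by -0.12 ± 0.09. A probe set of Sod1 of like brightness differed by 0.071, so its direction depends on the probe set. Cat, encoding catalase, differed by 0.029, and changed sign to -0.038 without further normalization and to -0.074 with centring. Sod3, the secreted enzyme, stood at 4.95, 5.24 and 5.36 in transgenic lenses, against 4.56, 4.69 and 4.81 in wild-type lenses, a difference of 0.50 ± 0.13 (SE; limma adjusted p = 0.0696) that a second probe set put at 0.060. Nqo1, the quinone reductase most used as a readout of Nrf2, was dim, at 5.07, 4.96 and 5.20 in transgenic lenses, against 5.61, 4.92 and 5.20 in wild-type lenses. Its values overlapped. Nqo2 differed by 0.17 on its brightest probe set, by -0.37 and -0.099 on the others and by -0.0995 with their mean, so its direction depends on the probe set.

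None of 14 aldo-keto reductase genes passed, and 11 had differences above 0, beside 9521 of all 18193 genes. Akr1a1, aldehyde reductase, was bright and slightly lower in transgenic lenses, at 12.91, 12.79 and 12.79, against 13.02, 13.01 and 12.99 in wild-type lenses. The groups did not overlap, and the difference was -0.17 ± 0.08 (SE; limma adjusted p = 0.249). Dimmer probe sets of Akr1a1 differed by -0.075, -0.24 and -0.0013, and the groups were apart only on the one at -0.24. Akr1b8, which reduces lipid aldehydes, differed by 0.24 and Akr1e1 by 0.14. Akr1b3, the aldose reductase gene of sugar cataract in rodents, was not measured as a single gene here. Of the 14 genes, 8 had means under the median of all probe sets in both genotypes.

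**Figure D4:**
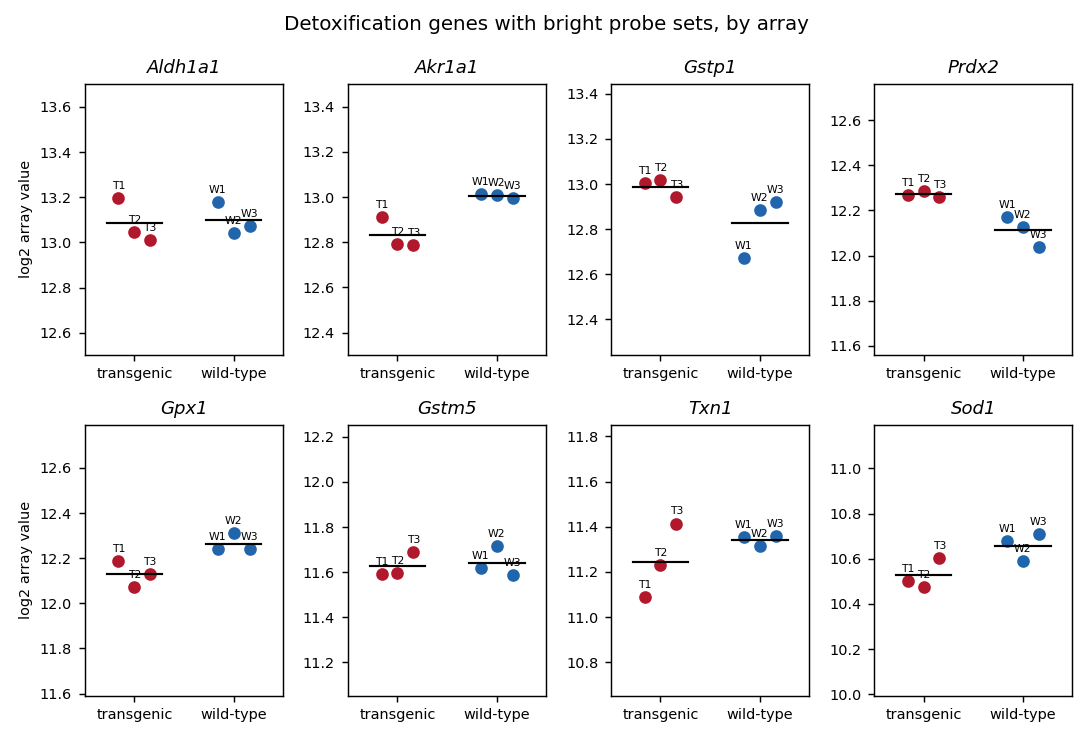
Log2 array values of 8 genes with bright probe sets in transgenic (red, left) and wild-type (blue, right) lenses, each on a y axis that spans the same range of log2 units; points are arrays and lines are means of 3. Aldh1a1, Gstm5, Txn1 and Sod1 overlap between genotypes, and Prdx2, Gstp1, Gpx1 and Akr1a1 are apart by small gaps.

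Metallothioneins, small cysteine-rich proteins that bind zinc and copper and react with oxidants, had the largest differences of the 101 genes and also the largest spread, an order that rests on T3. Without T3 the differences of Aldh1l2 (0.96) and Aldh6a1 (0.81) were larger than those of Mt1 (0.61) and Mt2 (0.46). Mt1 and Mt2 are neighbours on the genome and are induced by metals through metal response elements, so the letters before each start in RefSeq (GRCm38.p6, plus strand) are shown, with matches in capitals to the metal response element cores TGCGCNC and TGCACNC and to the antioxidant response element core TGACNNNGC, searched on both strands.
Mt1, chr8:94178839-94179088: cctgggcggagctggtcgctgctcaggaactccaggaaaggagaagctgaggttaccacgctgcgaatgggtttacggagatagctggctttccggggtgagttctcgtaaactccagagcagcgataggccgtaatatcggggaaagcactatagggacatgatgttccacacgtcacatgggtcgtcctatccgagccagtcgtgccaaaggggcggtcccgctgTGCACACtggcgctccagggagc
Mt2, chr8:94172368-94172617: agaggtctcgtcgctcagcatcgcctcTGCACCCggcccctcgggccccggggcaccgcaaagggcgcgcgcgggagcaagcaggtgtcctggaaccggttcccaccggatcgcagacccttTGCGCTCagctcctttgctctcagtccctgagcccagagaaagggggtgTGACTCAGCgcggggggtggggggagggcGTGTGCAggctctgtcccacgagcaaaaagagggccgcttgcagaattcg
Mt1 held 1 match to TGCACNC, and Mt2 held 2 matches to TGCACNC, 1 to TGCGCNC and 1 to TGACNNNGC. Only the 250 bases before each RefSeq start were searched, so elements beyond them are not counted. The numbers for Mt1 and Mt2 therefore hold for these windows alone. Over all 32851 promoters of this length, 10.2% held TGACNNNGC, 12.5% TGCGCNC and 10.4% TGCACNC. Among 112 promoters found for 87 of the 101 genes, the shares were 11.6%, 12.5% and 10.7%. Gclm, Txnrd1 and Sod1 were among the 13 genes with TGACNNNGC. None of the 13 passed the test, beside 4.55% of all genes called, and 13 genes are too few to compare with that share. A match is a description of letters, not a site of binding.

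Mt1 stood at 7.31, 7.66 and 9.45 in transgenic lenses, against 6.96, 6.87 and 6.78 in wild-type lenses. Mt2 stood at 7.43, 6.93 and 9.47 in transgenic lenses, against 6.63, 6.88 and 6.64 in wild-type lenses. Every transgenic sample was above every wild-type sample in both genes, and T3 was the highest by far, by 1.79 over the next array for Mt1 and by 2.03 for Mt2. The differences were 1.27 ± 0.48 and 1.22 ± 0.56 (SE), and neither passed (limma adjusted p = 0.176 and 0.251). Without T3, Mt1 was higher by 0.61 ± 0.13 (SE) and passed (adjusted p = 0.0490), and Mt2 differed by 0.46 ± 0.16 and did not pass (adjusted p = 0.163).

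A second, dimmer probe set of Mt1 did not follow the first. It stood at 6.03, 6.10 and 6.06 in transgenic lenses, against 6.06, 6.32 and 6.48 in wild-type lenses, a difference of -0.23. The brighter set has an identifier ending in _s_at, which marks probes that can match several related transcripts. Mt1, Mt2 and Glrx were the 3 of 101 genes whose value in T3 was more than 0.5 above every other array (2.97%), beside 2.31% of all genes. T3 also held the highest level of all 11 skin and all 11 muscle markers, given above, and their part in these values was not tested beyond the fits without T3.

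**Figure D5:**
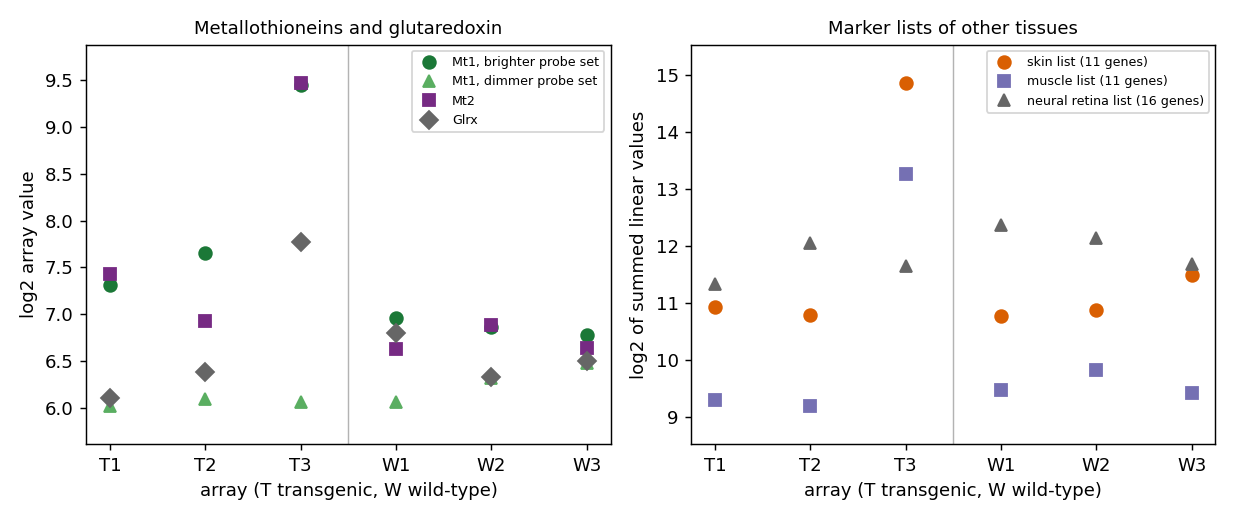
Left, log2 array values (y axis) of both Mt1 probe sets, Mt2 and Glrx on each of the 6 arrays (x axis); right, log2 of the summed linear values of the skin, muscle and neural retina marker lists on the same arrays. Mt1 (brighter probe set), Mt2, Glrx and the skin and muscle lists are highest in T3, and the dimmer Mt1 probe set is not.

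The probe sets of a gene often differed within this group. Of the 101 genes, 53 had a single probe set and 48 had several. For 37 genes the second brightest probe set reached the median of all probe sets, and in 20 of these it had the same sign as the first. In 77 of the 101 genes the mean of at least 1 genotype reached that median, and no gene was left out for a low signal.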

How the data were processed

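The authors deposited log2 signals of each probe set on each array. Per the labels' protocols, total RNA was labelled by in vitro transcription with biotin. How the authors summarised and normalized the probes is not given in the sources used here. The log2 scale was read from the values (2.68 to 14.8). After 64 control probe sets were set aside, 45037 remained. Upper quartiles differed by 0.120 between arrays, and quantile normalization was applied to the deposited values before the main tests (limma 3.58.1, R 4.3.3). Probe sets with 1 symbol in GEO's platform annotation (34945) were named through RefSeq (GRCm38.p6, 99.4% matched), 932 had several symbols and 9160 had none here. No arrays were identical.

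Genotypes were compared by limma's lmFit and eBayes over 18193 genes with Benjamini-Hochberg adjustment at 0.05. Arrays of these 18193 genes were also simulated, as independent normal values with variances drawn from limma's fitted prior and with no outlying array. There, 22.4% of log2 changes of 0.5, 90.4% of 1 and 99.2% of 2 were recovered. These shares need not hold for the real arrays. The number of arrays limits precision. Named genes are all calls, the 2 brightest and the smallest-p member of each role, and 26 genes of known role, of which Prdx1, Prdx6 and Akr1b3 were not measured singly. Genes outside this rule (such as Aldh1a2, Aldh1a3, Aldh3b2, Gstk1, Gsto1, Gpx7, Txndc5, Txndc9, Txnrd3 and Nnt) were chosen after their values were seen. The members and lists were chosen with earlier results of these data known. Alternatives were the scaling, dim probe sets, the choice of probe set, the variance model, array weights, a replicate block and each array left out; counts for the related list were added after seeing the data.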

Additional observations from a re-analysis of the deposited data

How the results depend on the processing

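Genes called in the detoxification group were 3 higher and 1 lower. On the values as deposited and after centring on a common median 3 were lower, without dim probe sets 2, and with trended robust variances 5. Averaging the probe sets of a gene gave 5 higher, and array weights 6 higher and 4 lower. With 1 array left out, counts ran from 1 to 3 higher and from 0 to 2 lower. Over all genes, 352 were higher and 475 lower. Array weights gave 599 and 790, centring gave 252 and 666, and leaving out an array gave 70 to 249 and 156 to 385. In the list of 48 related genes, 3 higher and 2 lower became 1 and 1 with the mean of probe sets and 5 higher with array weights. With an array left out 0 to 2 were higher and 2 lower.

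The replicate block gave 2 higher and 0 lower in the group, 69 and 154 over all genes, and 0 higher in the list. Gstp3 and Aldh1b1 lost their calls under it. The numbers were not taken as pairs, since same-numbered samples deviated together by correlations of only -0.052, 0.084 and 0.028.

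Differences changed sign for genes near 0 and also for Mt1, Srxn1, Glrx, Gclm, Txn1, Nqo1 and Nqo2. On the values as deposited these were Aldh1a1 (0.017), Cat (-0.038) and Gstm1 (-0.028), and after centring Aldh3a1 (-0.014), Cat (-0.074) and Gstm1 (-0.064). With array weights they were Aldh1a1 (0.0076), Aldh3a1 (-0.0011) and Txnip (0.032). With the mean of probe sets they were Gclm (0.027), Nqo2 (-0.0995), Prdx4 (0.0017), Srxn1 (-0.040), Txn1 (0.28) and Txnip (0.057). Without sets ending in _s_at or _x_at, Mt1 stood at -0.23. With 1 array left out, Aldh1a1 ran from -0.070 to 0.026, Aldh3a1 ran from -0.069 to 0.089, Cat ran from -0.12 to 0.14, Glrx ran from -0.30 to 0.53, Gstm1 ran from -0.030 to 0.064, Gstm5 ran from -0.046 to 0.022, Nqo1 ran from -0.33 to 0.017, Prdx4 ran from -0.13 to 0.043 and Txnip ran from -0.13 to 0.11. The cause of these sign changes was not tested, and fewer arrays enter the fit when 1 is left out.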
